A study of Mus musculus with 8 samples.

Results

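C646, an inhibitor of the acetyltransferase activity of CBP and p300, was compared with DMSO in mouse fibroblasts during direct reprogramming towards heart muscle. Every gene with counts is part of the comparison, 34250 of the 50600 genes listed, and the value of each is its log2 fold change in the C646 group minus that in the DMSO group. Of these, 14830 had enough counts to be tested. The cells were C57BL/6 mouse embryonic fibroblasts, and all groups carried retroviruses for the transcription factors Gata4, Hand2, Mef2c and Tbx5 (GHMT). They were cultured for 7 days in 5 µM C646 or in 1% DMSO, with 2 libraries each, 4 of the 8 in the study. The other 4 libraries were from GHMT cells in 0.1% ethanol or in 5 µM I-CBP112, a ligand of the CBP and p300 bromodomains. The sources used here do not give the solvent of C646, so the compound and the amount of DMSO may both differ between the groups compared and cannot be told apart. Nor do they give whether the 2 libraries of a group came from separate cultures, so that the p-values measure the spread between libraries, which may be technical.

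CBP and p300, encoded by Crebbp and Ep300, are transcriptional co-activators that are recruited by many transcription factors and acetylate histones at enhancers and promoters. Gata4, Mef2c, Hand2 and Tbx5 bind cardiac enhancers, and in fibroblasts their forced expression turns on sarcomere and calcium handling genes while fibroblast genes fall. DMSO is a common solvent of small molecules and is itself used to induce muscle differentiation in some stem cell lines.

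The tables hold no values of single libraries, so each group is given by its mean normalised count, rebuilt from the overall mean and the fold changes, and each difference by its standard error (SE, after ±). Differences past an adjusted p of 0.05 were found for 2351 of 14830 tested genes, which is 15.9%. Of these, 1183 were higher with C646 (7.98% of tested genes) and 1168 lower (7.88%). A change of at least 2-fold was reached by 458 of the higher and 246 of the lower genes, and of at least 4-fold by 96 and 31. Over all tested genes the median difference was -0.03 on the log2 scale and the median SE was 0.185. Among the 3708 genes with the lowest counts 5.99% were called higher and 2.80% lower, and among the 3708 with the highest 9.82% and 11.1%. Mitochondrial ribosomal RNA took 12.7% of normalised counts with DMSO and 10.6% with C646. Its part in the differences was not tested. The test used the spread fitted over all 8 libraries and a normal distribution. Against a t distribution (4 degrees of freedom) no gene passed, the smallest adjusted p being 0.0586, while 2138 genes had an unadjusted p below 0.05 (3837 with the normal distribution). With an upper bound for the SE, which ignores that both fold changes share a reference, 839 of 14830 genes passed, 511 higher and 328 lower. Below, where a gene group had members past the test, the count past this stricter test follows as the number with the upper-bound SE.

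**Figure D1:**
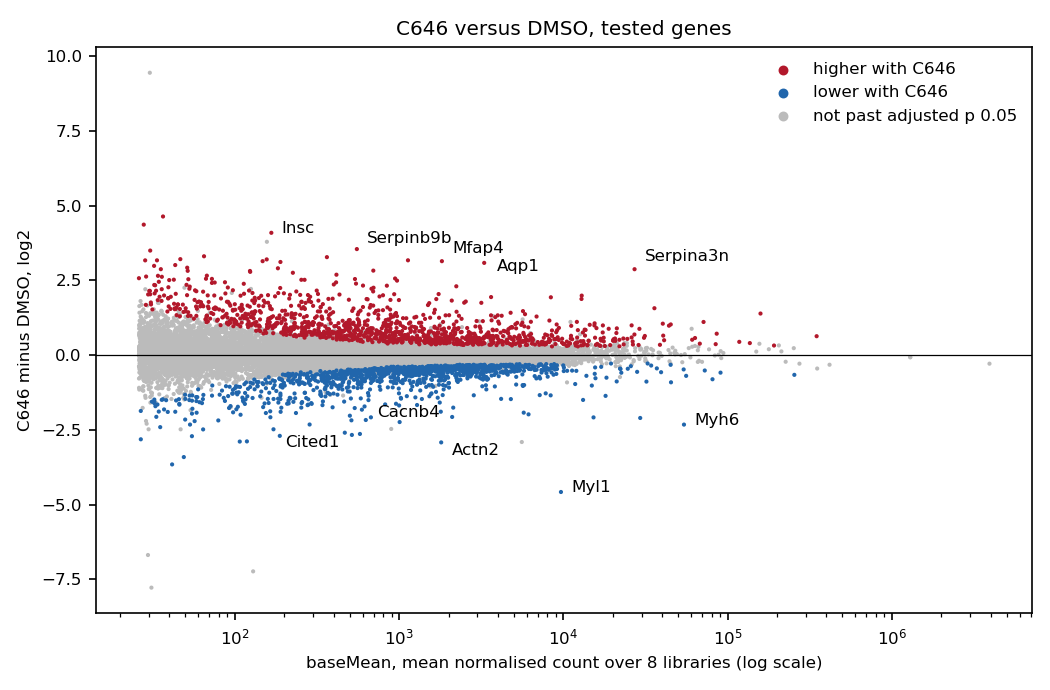
Difference between C646 and DMSO (vertical axis, log2) against the mean normalised count over 8 libraries (horizontal axis, log scale) for the 14830 tested genes. Red points are the 1183 genes higher with C646 and blue points the 1168 lower; named genes such as Myl1 and Serpina3n stand apart from the grey points, which did not pass adjusted p 0.05.

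The ethanol group shows on which side a difference lay. The deposited comparisons name no reference, and ethanol, the only group without its own comparison, was taken as the reference. Every rebuilt group mean and every comparison with ethanol given here rests on this. In the authors' deposited table for DMSO against ethanol, 2368 of 14830 genes had an adjusted p below 0.05 (16%), against 2 of 34250 in the authors' deposited table for C646 against ethanol (0.00584%). Before adjustment, 26.3% of tested genes had p below 0.05 in the authors' deposited table for DMSO and 0.748% in that for C646. The median absolute log2 fold change in the authors' deposited tables was 0.234 for DMSO and 0.0699 for C646. The SD of the Wald statistic in the authors' deposited tables was 2.23 for DMSO and 0.608 for C646, below the value of 1 that the fitted spread gives groups that do not differ, and the reason was not tested. Without values of single libraries, the labels of the C646 and ethanol libraries could not be checked, and every C646 value given here rests on them. For the genes described below, the means in ethanol are given where the order of the groups matters. The contrasts share libraries, so their values are given side by side. Cacnb4, which encodes a beta subunit of voltage-gated calcium channels, was low in the C646 group instead. It was singled out after its values were seen, as 1 of the 2 genes called for C646 against ethanol in the authors' deposited table (log2 fold change -1.61 ± 0.27, adjusted p = 7.38e-05; DMSO -0.11 ± 0.27, adjusted p = 0.861). Mean normalised counts of Cacnb4 were 287 in C646, 814 in DMSO, 878 in ethanol and 626 in I-CBP112. Its difference from DMSO was -1.51 ± 0.27 (adjusted p = 1.25e-06; gene at chr2:52428320-52676831, GRCm38). For the second gene, Gm37167, the authors' deposited table gave an adjusted p of 0.0098; its rebuilt mean was 57.3 with C646 and 0.17 in each other group, and it was too low in counts to enter the test against DMSO.

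The 2 lowest differences were those of the striated muscle genes Myl1 and Actn2. Myl1, an essential myosin light chain of fast skeletal muscle at chr1:66924295-66945404 on GRCm38, had a mean normalised count of 28824 with DMSO and 1205 with C646, 23.9-fold lower (log2 difference -4.58 ± 0.13, 95% interval -4.84 to -4.32, adjusted p = 5.42e-265). Its means were 1015 with ethanol and 7649 with I-CBP112, so that DMSO was highest and C646 stood next to ethanol. Actn2, the alpha-actinin of the muscle Z-disc (chr13:12269426-12340760), had 3776 with DMSO and 498 with C646 (log2 difference -2.92 ± 0.14, adjusted p = 2.91e-91). Myh6, the alpha myosin heavy chain of the heart (chr14:54941921-54966927), had 91239 with DMSO and 18214 with C646 (log2 difference -2.32 ± 0.16, adjusted p = 1.04e-42). Sln, which encodes sarcolipin, an inhibitor of the calcium pump, had 807 with DMSO and 133 with C646 (log2 difference -2.60 ± 0.30). The 12 lowest differences also included Adprhl1, a heart-enriched gene, at -2.71 ± 0.48, and Cited1, which encodes a binding partner of CBP and p300, at -2.67 ± 0.22. For Cited1 the means were 1150.1 with DMSO and 181 with C646. Membrane transporters were among them as well: the phospholipid transporter Abcb4 at -2.89 ± 0.36, the glutamate transporter Slc1a2 at -2.70 ± 0.41 and the sodium, potassium and calcium exchanger Slc24a2 at -2.64 ± 0.24. The remaining 3 were Cc2d2b at -2.89 ± 0.85, which did not pass with the upper-bound SE (adjusted p = 0.166), the neuronal pentraxin Nptx2 at -2.48 ± 0.35 and Map3k7cl at -2.32 ± 0.50.

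Genes with the highest C646 values relative to DMSO were led by Insc, which encodes an adaptor that orients the mitotic spindle (chr7:114743694-114850383). Its mean normalised count was 18.2 with DMSO and 311 with C646, 17.1-fold higher (log2 difference 4.10 ± 0.36, 95% interval 3.39 to 4.80, adjusted p = 3.22e-27). Insc stood at 319 with ethanol and 18.7 with I-CBP112, so that the DMSO and I-CBP112 groups were low and the C646 and ethanol groups high. Serpinb9b, an intracellular serpin, had 81.1 with DMSO and 950.3 with C646 (log2 difference 3.55 ± 0.21), and Serpina3m, a secreted serpin, 71.3 with DMSO and 694 with C646 (3.28 ± 0.23). Their relative Serpina3n (chr12:104406729-104414329) had the smallest p of the higher genes, with 5974 with DMSO and 43884 with C646 (log2 difference 2.88 ± 0.11, adjusted p = 1.23e-151). The 12 highest also held the metalloproteinase inhibitor Timp4 at 3.31 ± 0.47, the collagen gene Col28a1 at 3.18 ± 0.16, the microfibril gene Mfap4 at 3.15 ± 0.17, the cartilage proteoglycan gene Epyc at 3.15 ± 0.32 and Tnfrsf11b, the osteoprotegerin gene, at 3.12 ± 0.35. Aqp1, the aquaporin-1 water channel, had 689.8 with DMSO and 5869.7 with C646 (log2 difference 3.09 ± 0.16, adjusted p = 3.9e-77). The lysolipid transporter Mfsd2a stood at 3.20 ± 0.35, the asparaginase gene Aspg at 2.93 ± 0.56 and the noradrenaline transporter Slc6a2 at 2.91 ± 0.34. In each of the 12 genes the C646 mean was the nearest to the ethanol mean among the 3 treatments.

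**Figure D2:**
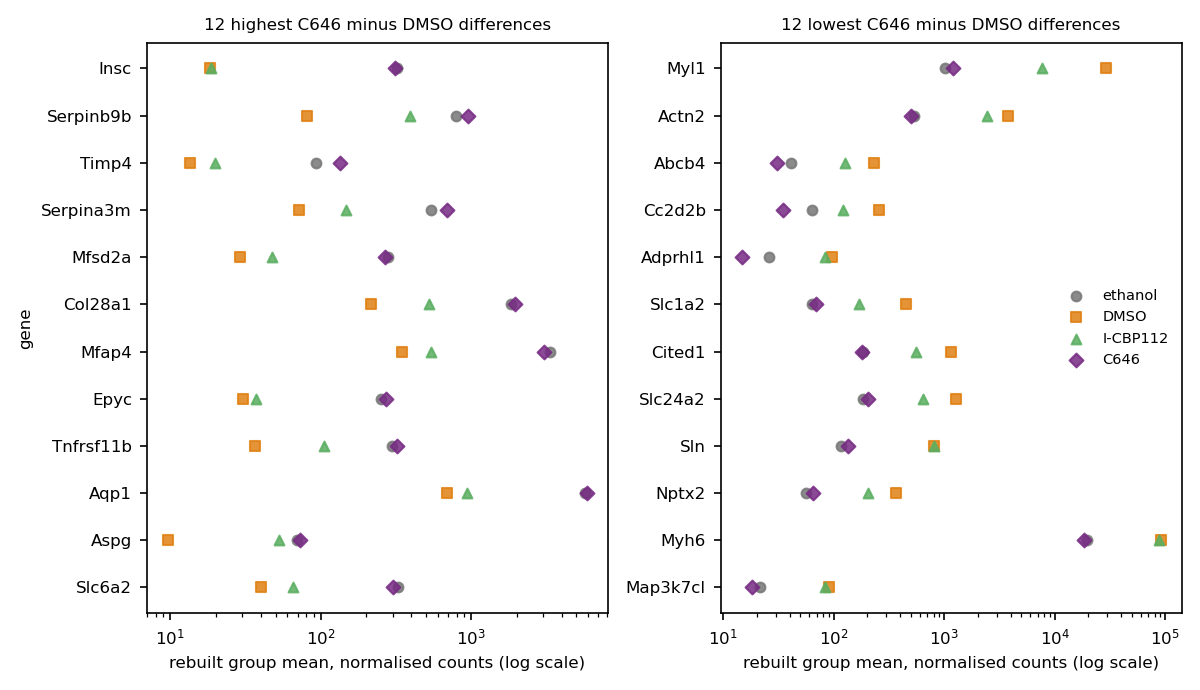
Rebuilt mean normalised counts (horizontal axis, log scale) of the 12 genes with the highest (left) and the 12 with the lowest (right) C646 minus DMSO difference, in the 4 groups of 2 libraries; single libraries are not in the tables and no error bars are drawn. Purple C646 diamonds lie on or near the grey ethanol circles, and orange DMSO squares lie away from both, as for Insc (18.2 with DMSO) and Myl1 (28824 with DMSO).

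The transduced factors themselves were lower with C646 in 3 of 4 cases. Mef2c had a mean normalised count of 24263 with DMSO and 14387 with C646 (log2 difference -0.75 ± 0.13, adjusted p = 5.54e-07), Hand2 10972 with DMSO and 7958 with C646 (-0.46 ± 0.12, adjusted p = 0.000916) and Gata4 11801 with DMSO and 8850.4 with C646 (-0.42 ± 0.12, adjusted p = 0.00437). Tbx5 had 10146 with DMSO and 7404 with C646 with a wider error (-0.45 ± 0.35, 95% interval -1.14 to 0.23, adjusted p = 0.458) and was not past the test. With the upper-bound SE only Mef2c of the 4 remained past it (Hand2 adjusted p = 0.07, Gata4 adjusted p = 0.138). Counts per gene do not separate transcripts of the retroviruses from those of the cells' own genes. The genes of the proteins that C646 inhibits did not pass the test. Crebbp had 1934 with DMSO and 1947 with C646 (log2 difference 0.01 ± 0.21, 95% interval -0.41 to 0.43) and Ep300 1761 with DMSO and 1539 with C646 (-0.19 ± 0.15, 95% interval -0.49 to 0.10).

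Among 16 tested genes of other cardiac transcription factors and co-factors, 7 were lower with C646 and 1 was higher, with a median difference of -0.29 (4 and 0 with the upper-bound SE). Myocd, whose product myocardin is a co-activator of serum response factor, had 1764 with DMSO and 786 with C646 (log2 difference -1.17 ± 0.17). Hopx, a homeodomain gene of cardiac progenitors, stood at -1.05 ± 0.23, the T-box gene Tbx2 at -1.01 ± 0.24, and the strain-responsive gene Ankrd1 at -0.69 ± 0.12. Nkx2-5, a core cardiac factor outside GHMT, was close to 0 counts, at an overall mean of 0.333, and was not tested.

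Sarcomere genes, which build the contractile filaments, were lower with C646 in 18 of 29 tested members and higher in 0, with a median difference of -0.88 beside -0.03 over all tested genes (13 lower with the upper-bound SE). In bulk RNA, fewer cells of a type and less RNA per cell cannot be told apart. Summed over the list, normalised counts were 230511 in C646, 505955 in DMSO, 228395 in ethanol and 492452 in I-CBP112. Of the thick filament genes, Myl7, the atrial regulatory light chain, had 58408 with DMSO and 13593 with C646 (log2 difference -2.10 ± 0.11, adjusted p = 1.13e-79), next to Myh6 above. Of the thin filament genes, Tnni3, the cardiac inhibitory troponin, had 10028 with DMSO and 2641 with C646 (-1.92 ± 0.14) and Tnnc1, the calcium-binding troponin of heart and slow muscle, 20271 with DMSO and 7174 with C646 (-1.50 ± 0.15). Titin, the spring that runs from Z-disc to M-band and is encoded by Ttn, stood at -1.36 ± 0.17. For Ttn the I-CBP112 mean of 31570.3 was above the DMSO mean of 23377, and the C646 mean was 9091. The Z-disc gene Ldb3 was at -1.34 ± 0.13 and Unc45b, the chaperone gene of muscle myosin, at -1.41 ± 0.16. The 11 members that did not pass ran up to 0.32 for Synpo2l.

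Promoters of this list were searched because its members moved together. Letters were read on both strands in the 250 bases before each RefSeq start on GRCm38.p6, and 24 of 29 tested sarcomere genes had an entry (82.8%). The CArG box, which serum response factor binds, was present for 5 of the 24 (20.8%), against 1.47% of all 32851 promoters. The MEF2 box, which Mef2c can bind, was present for 4 (16.7%), against 0.508%. A gene counted where any of its promoter entries held the box, whereas the 32851 are single entries. Counted by gene, 1.46% of the 10333 tested protein-coding genes with an entry held the CArG box and 0.455% the MEF2 box. Both boxes were chosen after seeing values. They were also counted in the smooth muscle list described below, whose called members were mostly higher with C646. There 14 of 18 genes had an entry (77.8%), 1 of the 14 with a CArG box and 1 with a MEF2 box. A relation between the boxes and the direction of change was not tested. Over all genes past the test, promoter entries covered 73.2% of higher and 80.3% of lower protein-coding genes. Among those covered, the CArG box was present for 2.17% of higher and 2.32% of lower genes, and the MEF2 box for 0.725% and 1.21%. Entries covered 70.6% of genes at least 2-fold higher and 74.3% of those at least 2-fold lower. Of those with an entry, 1.65% and 6.55% held the CArG box and 0.99% and 3.57% the MEF2 box. Among these sets of genes past the test, coverage was below 80% for all but the lower genes, so no comparison is drawn from these shares. It was 79.6% for all tested protein-coding genes. Shares by gene over tested genes, here and below, are therefore given as description only. Of the other elements searched, the sterol element TCACCCCA was present for 2 of the 24 (8.33%). It was in 1.34% of all promoters and, counted by gene, in 1.54% of tested protein-coding genes with an entry. Motifs were counted separately from each other. The windows below hold 1 match each, in capitals, on the minus strand of the genome: chr11:5898794-5898883 for Myl7 and chr2:114052876-114052962 for Actc1, the cardiac actin gene, with a CArG box, and chr2:76982664-76982753 for Ttn with a MEF2 box. The matches end 51, 37 and 156 bases before the start. They are shown as letters found in genes lower with C646, not as sites in use.
Myl7: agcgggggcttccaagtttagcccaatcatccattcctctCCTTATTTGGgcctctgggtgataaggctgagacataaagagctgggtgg
Actc1: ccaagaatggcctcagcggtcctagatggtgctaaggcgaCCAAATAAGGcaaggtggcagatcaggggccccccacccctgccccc
Ttn: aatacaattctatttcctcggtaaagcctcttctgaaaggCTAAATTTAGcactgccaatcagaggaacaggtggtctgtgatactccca

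Genes of calcium handling and ion channels were lower with C646 in 12 of 25 tested members and higher in 0, with a median difference of -0.60 (8 lower with the upper-bound SE). Scaling to equal totals, centring on the median gene or a higher count filter each added 1 higher member. Srl, which encodes the calcium-binding protein sarcalumenin of the sarcoplasmic reticulum, had 10825 with DMSO and 2741 with C646 (log2 difference -1.98 ± 0.13, adjusted p = 4.07e-52). The sodium and calcium exchanger Slc8a1 had 6379.9 with DMSO and 2313 with C646 (-1.46 ± 0.11), and Ryr2, the calcium release channel, 12631 with DMSO and 4969 with C646 (-1.35 ± 0.12). The calcium pump gene Atp2a2 was at -0.88 ± 0.12 and the calcium-storing Casq2 at -0.63 ± 0.13. Triadin, which ties the release channel to its calcium store, was at -0.76 ± 0.18 (Trdn), and the pacemaker channel gene Hcn4 at -1.15 ± 0.17. No member of the natriuretic peptide and stress list passed the test (0 of 5). Nppa, which encodes atrial natriuretic peptide, had 7255 with DMSO and 967 with C646, but its SE was wide (log2 difference -2.91 ± 1.29, 95% interval -5.44 to -0.37, adjusted p = 0.118), and Nppb likewise (-2.47 ± 1.16, adjusted p = 0.147).

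Skeletal muscle genes did not share a direction, with 4 lower and 3 higher of 11 tested (2 and 3 with the upper-bound SE). Beside Myl1, Acta1, the skeletal actin gene, had 286 with DMSO and 74.8 with C646 (log2 difference -1.94 ± 0.33). In the other direction Tnnt3, the fast skeletal troponin T, had 28.4 with DMSO and 200.3 with C646 (2.82 ± 0.46) and Actn3, the fast-fibre alpha-actinin, 473 with DMSO and 796 with C646 (0.75 ± 0.18). The myogenic factor gene Myog was near 0 counts, at an overall mean of 0.224.

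Smooth muscle genes went against the sarcomere genes. Of 18 tested members 14 were higher with C646 and 2 lower, with a median difference of 0.88 (9 and 1 with the upper-bound SE). Tpm2, the beta tropomyosin, had a mean normalised count of 4089.6 with DMSO and 15067 with C646 (log2 difference 1.88 ± 0.12, adjusted p = 2.97e-52), with 14955 in ethanol and 17479 in I-CBP112, so that DMSO was the low group. Actg2, the enteric smooth muscle actin gene, had 183 with DMSO and 872 with C646 (log2 difference 2.26 ± 0.20). Calponin, encoded by Cnn1, stood at 1.18 ± 0.17, transgelin (Tagln) at 1.07 ± 0.13 and the smooth muscle myosin heavy chain Myh11 at 1.02 ± 0.18. The regulatory light chain Myl9 was at 0.90 ± 0.11 and leiomodin (Lmod1) at 0.87 ± 0.15. The 2 lower members were Synpo2 (-1.75 ± 0.30) and Pln, and Pln is in the calcium handling list too. Des is in 3 of the muscle lists.

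**Figure D3:**
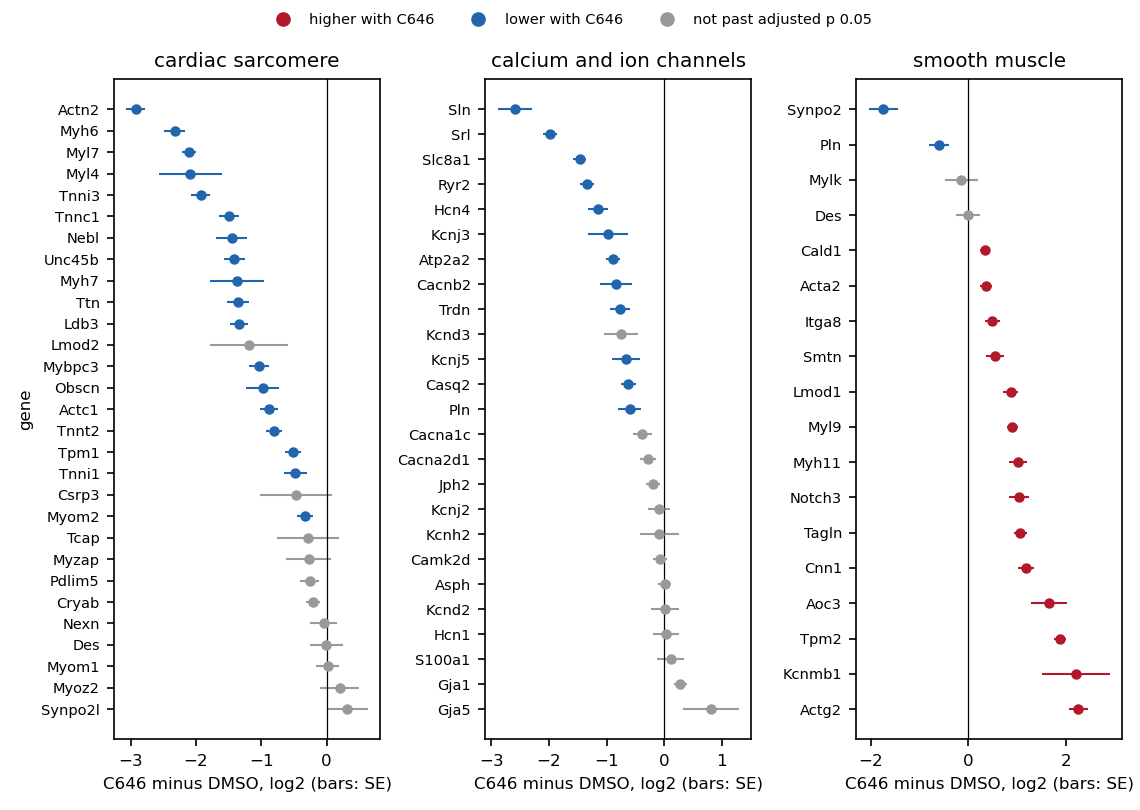
C646 minus DMSO difference (log2, bars 1 SE) of each tested member of the sarcomere, calcium and ion channel, and smooth muscle lists. Blue (lower) points make up 18 of 29 members in the left panel and 12 of 25 in the middle one, and red (higher) points 14 of 18 in the right one.

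Extracellular matrix genes were higher with C646 in 23 of 40 tested members and lower in 1, with a median difference of 0.55 (16 and 0 with the upper-bound SE). Summed normalised counts of the list were 1965713 in C646, 1419836 in DMSO, 2017215 in ethanol and 1292935 in I-CBP112. Elastin, the core of elastic fibres (Eln, chr5:134702593-134747323), had 4701 with DMSO and 18716 with C646 (log2 difference 1.99 ± 0.12, adjusted p = 2.17e-58). The microfibril gene Fbn2 was at 1.17 ± 0.18 and Mfap4 is given above. Fibronectin (Fn1) had 39237 with DMSO and 84772 with C646 (1.11 ± 0.17), the collagen gene Col12a1 27911 with DMSO and 56924 with C646 (1.03 ± 0.12) and periostin (Postn), a matrix protein of activated fibroblasts, 28865 with DMSO and 57202 with C646 (0.99 ± 0.12). Col8a1 and the proteoglycan gene Lum were at 0.88 ± 0.13 and 0.99 ± 0.14.

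The fibroblast markers used to check the labelled cell type were read in every group. Of 19 tested, 10 were higher with C646 and 0 lower (7 with the upper-bound SE), with a median of 0.52. Only Tcf21 of the 20 listed fell under the filter. Ly6a, a marker of mesenchymal progenitors, had 3179 with DMSO and 12175 with C646 (log2 difference 1.94 ± 0.17, adjusted p = 1.77e-26), and Pi16 stood at 2.13 ± 0.25. Pdgfra, the receptor that marks most fibroblasts, had 7489 with DMSO and 11346 with C646 (0.60 ± 0.11), and vimentin (Vim) 92569 with DMSO and 126029 with C646 (0.45 ± 0.12), which did not pass with the upper-bound SE (adjusted p = 0.089).

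Wnt pathway genes were higher in 13 of 21 tested members and lower in 0 (5 higher with the upper-bound SE), with a median of 0.51. Ligand genes among them were Wnt2, at 56.2 with DMSO and 180.4 with C646 (log2 difference 1.68 ± 0.37), Wnt4 at 0.92 ± 0.23 and Wnt5a at 0.49 ± 0.15; the last 2 did not pass with the upper-bound SE (adjusted p = 0.059 and 0.179). Lgr5, the R-spondin receptor gene and a target of the pathway, had 305 with DMSO and 1224 with C646 (2.01 ± 0.21). The Wnt antagonist Dkk2 was at 0.99 ± 0.15, the feedback inhibitor Nkd1 at 0.91 ± 0.15 and the target gene Wisp1 at 0.96 ± 0.12. Activators and antagonists were therefore both among the higher members. TGF-beta and BMP genes gave 4 higher and 1 lower of 21 (2 and 0 with the upper-bound SE, 2 and 1 with no filter), with 23.8% called beside 15.9% of all tested genes. The BMP antagonist gremlin (Grem1) had 296 with DMSO and 1153 with C646 (log2 difference 1.96 ± 0.16, adjusted p = 1.55e-32) and the activin subunit gene Inhba 207 with DMSO and 750.3 with C646 (1.86 ± 0.19), while the ligand gene Bmp2 was lower, at -0.96 ± 0.23 (upper-bound SE, adjusted p = 0.054).

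Type I interferon response genes were higher with C646 in 24 of 34 tested members and lower in 0, with a median difference of 0.71 (15 higher with the upper-bound SE). These genes are switched on when interferon receptors activate STAT proteins. Oas3, which makes the second messenger that activates the antiviral ribonuclease L, had a mean normalised count of 98.4 with DMSO and 507 with C646 (log2 difference 2.37 ± 0.26, adjusted p = 5.12e-18), with 484 in ethanol and 512 in I-CBP112. DMSO was the single low group for this gene. Oas2 had 118 with DMSO and 418 with C646 (1.83 ± 0.23) and Oas1a 387 with DMSO and 901 with C646 (1.22 ± 0.17). Ifi27l2a stood at 2.03 ± 0.23, the RNA-binding gene Ifit3 at 1.01 ± 0.18 and its near copy Ifit3b at 1.07 ± 0.20. Reads of near-identical copies can be split between them, so single values of the Oas1 and Ifit3 genes are uncertain. The transcription factor gene Irf7 was at 0.90 ± 0.14 and the receptor transporter gene Rtp4 at 0.77 ± 0.14. The gene Stat2 was among the 10 members that did not pass.

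Promoter entries covered 23 of 33 protein-coding members of this list (69.7%), fewer than 80%, so a share over the list is void. The interferon element was searched as GAAANNGAA on both strands, with overlapping matches counted, and 7.13% of all 32851 promoters hold it. A pair of windows is shown for genes higher with C646, at chr4:156200836-156200924 for Isg15, the ubiquitin-like modifier gene, with 3 overlapping matches, and chr5:120777680-120777768 for Oas3, with 2. Both lie on the minus strand of GRCm38.p6, the capitals mark the matches, and the last match ends 57 and 60 bases before the start.
Isg15: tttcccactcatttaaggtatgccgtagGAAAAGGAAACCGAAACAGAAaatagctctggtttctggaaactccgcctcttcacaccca
Oas3: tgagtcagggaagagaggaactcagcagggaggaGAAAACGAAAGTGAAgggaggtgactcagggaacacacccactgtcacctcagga

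Antigen presentation genes were higher in 9 of 16 tested members and lower in 0 (6 with the upper-bound SE), with a median of 0.49. Nlrc5, the transactivator of class I genes, had 141 with DMSO and 427 with C646 (log2 difference 1.60 ± 0.29). The class I heavy chain gene H2-D1 had 12594 with DMSO and 18878 with C646 (0.58 ± 0.11), the light chain gene B2m 29753 with DMSO and 42067 with C646 (0.50 ± 0.11) and the immunoproteasome gene Psmb8 302 with DMSO and 567 with C646 (0.91 ± 0.19). Class I genes are close paralogs, so that H2-D1, H2-K1, H2-Q4 and H2-Q6 values are uncertain.

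Complement genes were higher in 7 of 14 tested members and lower in 1 (7 and 0 with the upper-bound SE). C4b had 137 with DMSO and 804 with C646 (log2 difference 2.55 ± 0.28), C2 1029.7 with DMSO and 2600.5 with C646 (1.34 ± 0.14) and Serping1, the inhibitor of the first component, 2292 with DMSO and 5717 with C646 (1.32 ± 0.13). The first-component protease gene C1ra was at 0.92 ± 0.12. Cytokine, chemokine and NF-kappa-B genes gave 8 higher and 1 lower of 22 tested (4 and 1 with the upper-bound SE). Mmp3, a matrix-degrading protease, had 324 with DMSO and 977 with C646 (1.59 ± 0.20), the neutrophil chemokine gene Cxcl5 49.2 with DMSO and 161 with C646 (1.70 ± 0.36) and the adhesion molecule gene Vcam1 4577 with DMSO and 7053 with C646 (0.62 ± 0.14). The monocyte chemokine gene Ccl2 was the lower member, with 333 with DMSO and 137 with C646 (-1.28 ± 0.24).

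Cholesterol synthesis genes, which sterol-sensing SREBP factors control, were lower with C646 in 16 of 25 tested members and higher in 0, with a median difference of -0.47 (9 lower with the upper-bound SE). The sterol reductase gene Tm7sf2 had 564 with DMSO and 256 with C646 (log2 difference -1.14 ± 0.22) and was the only member past 2-fold. The methylsterol oxidase gene Msmo1 had 7718 with DMSO and 3902 with C646 (-0.98 ± 0.13, adjusted p = 1.63e-11), with 3690.1 in ethanol and 5341 in I-CBP112, so that DMSO was highest. Mvd, of the mevalonate steps, was at -0.86 ± 0.18 and the thiolase gene Acat2 at -0.83 ± 0.14. Hmgcs1, the HMG-CoA synthase gene, and Sqle, the squalene epoxidase gene, were at -0.52 ± 0.11 and -0.58 ± 0.13. Fatty acid synthesis and adipocyte genes were divided, with 7 higher and 5 lower of 24 (3 and 1 with the upper-bound SE, 6 and 3 with no filter). The elongase gene Elovl6 was lower (-0.86 ± 0.15), whereas the lipid droplet gene Plin4 had 492 with DMSO and 2431 with C646 (2.31 ± 0.38) and the fatty acid carrier Fabp4 277 with DMSO and 507 with C646 (0.87 ± 0.19).

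**Figure D4:**
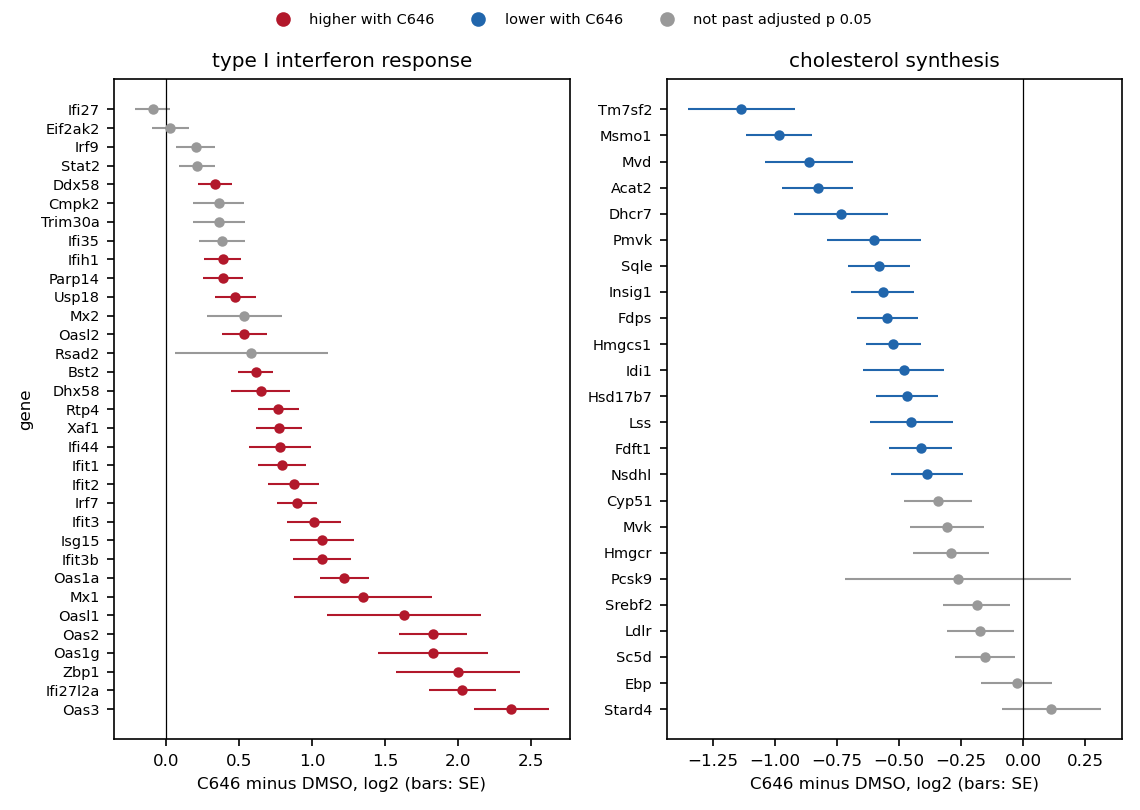
C646 minus DMSO difference (log2, bars 1 SE) of tested members of the type I interferon response list (left) and the cholesterol synthesis list (right). Red points, higher with C646, make up 24 of the 33 interferon genes drawn, and blue points, lower with C646, 15 of the 24 cholesterol genes drawn.

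Energy metabolism genes that passed the test were mostly lower with C646. Nuclear-encoded oxidative phosphorylation genes were lower in 13 of 47 and higher in 0, with a median of -0.26 (2 lower with the upper-bound SE). Testing all genes with counts left 8 lower. Cox7a1, the heart and muscle form of a cytochrome oxidase subunit, had 328 with DMSO and 137 with C646 (log2 difference -1.26 ± 0.29), and Cox6a2, another muscle form, 81.3 with DMSO and 30.7 with C646 (-1.40 ± 0.43; upper-bound SE, adjusted p = 0.24). Atp5a1, of the ATP synthase, was at -0.56 ± 0.12. Of 13 genes encoded in mitochondria 1 was lower, mt-Nd1 at -0.35 ± 0.11 (upper-bound SE, adjusted p = 0.233). That is 7.69% of members lower, beside 7.88% of all tested genes. Genes of fatty acid use and heart fuel supply gave 10 lower and 3 higher of 28 (3 and 1 with the upper-bound SE). Ldhb, the heart form of lactate dehydrogenase, had 4319.9 with DMSO and 1702 with C646 (-1.34 ± 0.14), and the oxidation enzyme gene Hadhb was at -0.62 ± 0.12. Glycolysis and hypoxia genes gave 7 lower and 2 higher of 27 (3 and 1). The muscle phosphofructokinase gene Pfkm was lower (-0.90 ± 0.14), as was Hk1 (-0.73 ± 0.13), while Hk2, encoding another hexokinase, had 170.5 with DMSO and 418 with C646 (1.29 ± 0.24).

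Stress response lists ranged from 0 of 24 members called to 4 of 8. The NRF2 and integrated stress response lists had 28.1% and 25% called, beside 15.9% of all tested genes. Of 32 tested NRF2, glutathione and xenobiotic genes, 8 were higher and 1 lower (4 and 0 with the upper-bound SE, 9 and 0 under either scaling). Ugt1a6a, a glucuronosyltransferase gene whose exons are shared with others of its locus and whose value is therefore uncertain, had 917 with DMSO and 3253 with C646 (log2 difference 1.83 ± 0.15), and the aldehyde dehydrogenase genes Aldh3a1 and Aldh1a1 were at 1.11 ± 0.15 and 0.99 ± 0.12. Integrated stress response genes gave 7 higher and 1 lower of 32 (3 and 0 with the upper-bound SE, 0 lower under either scaling), led by the pseudokinase gene Trib3 (1.02 ± 0.18) and the proline synthesis gene Pycr1 (0.93 ± 0.20). Of 24 unfolded protein and heat shock genes, 0 passed in either direction. Their nearest was Pdia3, a folding enzyme gene of the endoplasmic reticulum, at 0.30 ± 0.12 (adjusted p = 0.0718), which passed when differences were scaled to equal totals (adjusted p = 0.044) or centred on the median gene (adjusted p = 0.039). Metallothionein and zinc genes were lower in 4 of 8 and higher in 0 (1 lower with the upper-bound SE), and both scalings and the higher count filter added 1 higher. The zinc exporter gene Slc30a1 had 816 with DMSO and 413 with C646 (-0.98 ± 0.19), and the metal-binding Mt2 and Mt1 were at -0.79 ± 0.20 and -0.66 ± 0.20 (upper-bound SE, adjusted p = 0.069 and 0.208). For Mt1 the I-CBP112 mean was 14586, above 8857 with DMSO and 5624 with C646. The metal response element TGCACNC was present, on either strand, for 4 of the 7 members with a promoter entry (57.1%). It was in 10.4% of all promoters and, counted by gene, in 12.7% of tested protein-coding genes with an entry. The antioxidant element TGACNNNGC was present for 3 of the 7 (42.9%), against 10.2% of all promoters and 13.8% of tested genes with an entry.

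Lysosomal hydrolase and membrane protein genes gave 5 higher and 8 lower of 40 (1 and 0 with the upper-bound SE, 5 and 5 under either scaling). That is 32.5% called, beside 15.9% of all tested genes, with a median difference of -0.16. Lower members included Smpd1 (log2 difference -0.56 ± 0.14), Man2b1 (-0.49 ± 0.12) and Laptm4b (-0.47 ± 0.14). Ctsc, a cathepsin gene, was higher, with 2135 with DMSO and 5378 with C646 (1.33 ± 0.12). No vacuolar ATPase gene passed (0 of 16). Among 12 MiT factor and pigment cell genes, 2 were higher and 1 lower (1 and 0 with the upper-bound SE), with 25% called beside 15.9% of all tested genes. Gpnmb, a membrane glycoprotein gene and target of these factors, had 4576 with DMSO and 9326 with C646 (1.03 ± 0.12, adjusted p = 6.72e-16).

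Genes of the chromatin machinery and its partners were called in 2 of 31 (6.45%), 4 of 18 (22.2%) and 4 of 25 (16%) members of 3 lists, beside 15.9% of all tested genes. Of 31 acetyltransferase and bromodomain protein genes, 2 were lower and 0 higher, Trim24 at -0.45 ± 0.12 and Brd2 at -0.33 ± 0.11, and neither passed with the upper-bound SE. Brd2 also lost its call when differences were scaled to equal totals (adjusted p = 0.058). Histone deacetylase genes gave 3 lower and 1 higher of 18 (1 and 0 with the upper-bound SE). Hdac9, a class II deacetylase gene that is a target of MEF2 and whose product represses it, had a mean normalised count of 1139 with DMSO and 346 with C646 (log2 difference -1.72 ± 0.21, adjusted p = 8.2e-15). Ethanol gave 338 and I-CBP112 642 for Hdac9. CREB and CITED partners and immediate early genes gave 2 higher and 2 lower of 25 (0 and 1 with the upper-bound SE), and Cited1, described above, was the lowest of them.

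Cell cycle genes were called no more often than tested genes at large, with 2 higher and 0 lower of 40 tested (1 and 0 with the upper-bound SE) and a median of -0.11. The ribonucleotide reductase gene Rrm1 had 2029 with DMSO and 3049 with C646 (log2 difference 0.59 ± 0.14) and the replication helicase gene Mcm3 was at 0.56 ± 0.20 (upper-bound SE, adjusted p = 0.315). CDK inhibitor and p53 target genes gave 4 higher and 0 lower of 20 (2 with the upper-bound SE). That is 20% of members called, beside 15.9% of all tested genes. Cdkn1a, the gene of an inhibitor that mediates p53-driven arrest, had 3354 with DMSO and 8221 with C646 (1.29 ± 0.16, adjusted p = 6.15e-14), and Cdkn1c, which encodes a related inhibitor, 6499 with DMSO and 11069 with C646 (0.77 ± 0.15).

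Markers of other cell types that embryonic cultures can hold were counted beside these groups, and their part in the differences was not tested. Of 16 tested macrophage and leukocyte markers, 1 was higher with C646, Ctss at 0.68 ± 0.23, and 0 lower. The call of Ctss was lost with the upper-bound SE (adjusted p = 0.28). That is 6.25% of members higher, beside 7.98% of all tested genes. Summed counts of that list were 5716 in C646, 6110 in DMSO, 6075 in ethanol and 5232 in I-CBP112. Lyz2 and C1qb were at -0.25 ± 0.14 and -0.38 ± 0.19, and the lymphocyte marker Cd3e was near 0, at an overall mean of 0.139. Endothelial markers were higher in 2 of 5 tested, Tek (1.28 ± 0.21) and Flt1 (0.58 ± 0.13), both also with the upper-bound SE, with summed counts of 7709 in C646, 5150 in DMSO, 7727 in ethanol and 5603 in I-CBP112. Their defining markers Pecam1 and Cdh5 were too low to be tested, at overall means of 14.2 and 6.49. Cartilage, bone and tendon markers were higher in 7 of 12 and lower in 0 (4 with the upper-bound SE), with sums of 8765 in C646, 5385 in DMSO, 9026 in ethanol and 5985 in I-CBP112. Tnmd, a tendon gene, had 85.5 with DMSO and 347 with C646 (2.02 ± 0.26), the phosphatase gene Alpl 254 with DMSO and 932 with C646 (1.88 ± 0.25) and Sox9, the cartilage regulator gene, 188 with DMSO and 447 with C646 (1.25 ± 0.23). Epithelial and epicardial markers gave 4 higher and 1 lower of 8 (1 and 0 with the upper-bound SE), with sums of 8254 in C646, 7998 in DMSO, 8427 in ethanol and 6572 in I-CBP112. Krt14, an epidermal keratin gene, had 5.28 with DMSO and 47.6 with C646 (3.17 ± 0.71), and Epcam was near 0, at an overall mean of 0.524. Neuron and glia markers gave 3 higher and 1 lower of 8 (2 and 0 with the upper-bound SE, 3 and 0 under either scaling), with sums of 5674 in C646, 4586 in DMSO, 5697 in ethanol and 7279 in I-CBP112.

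**Figure D5:**
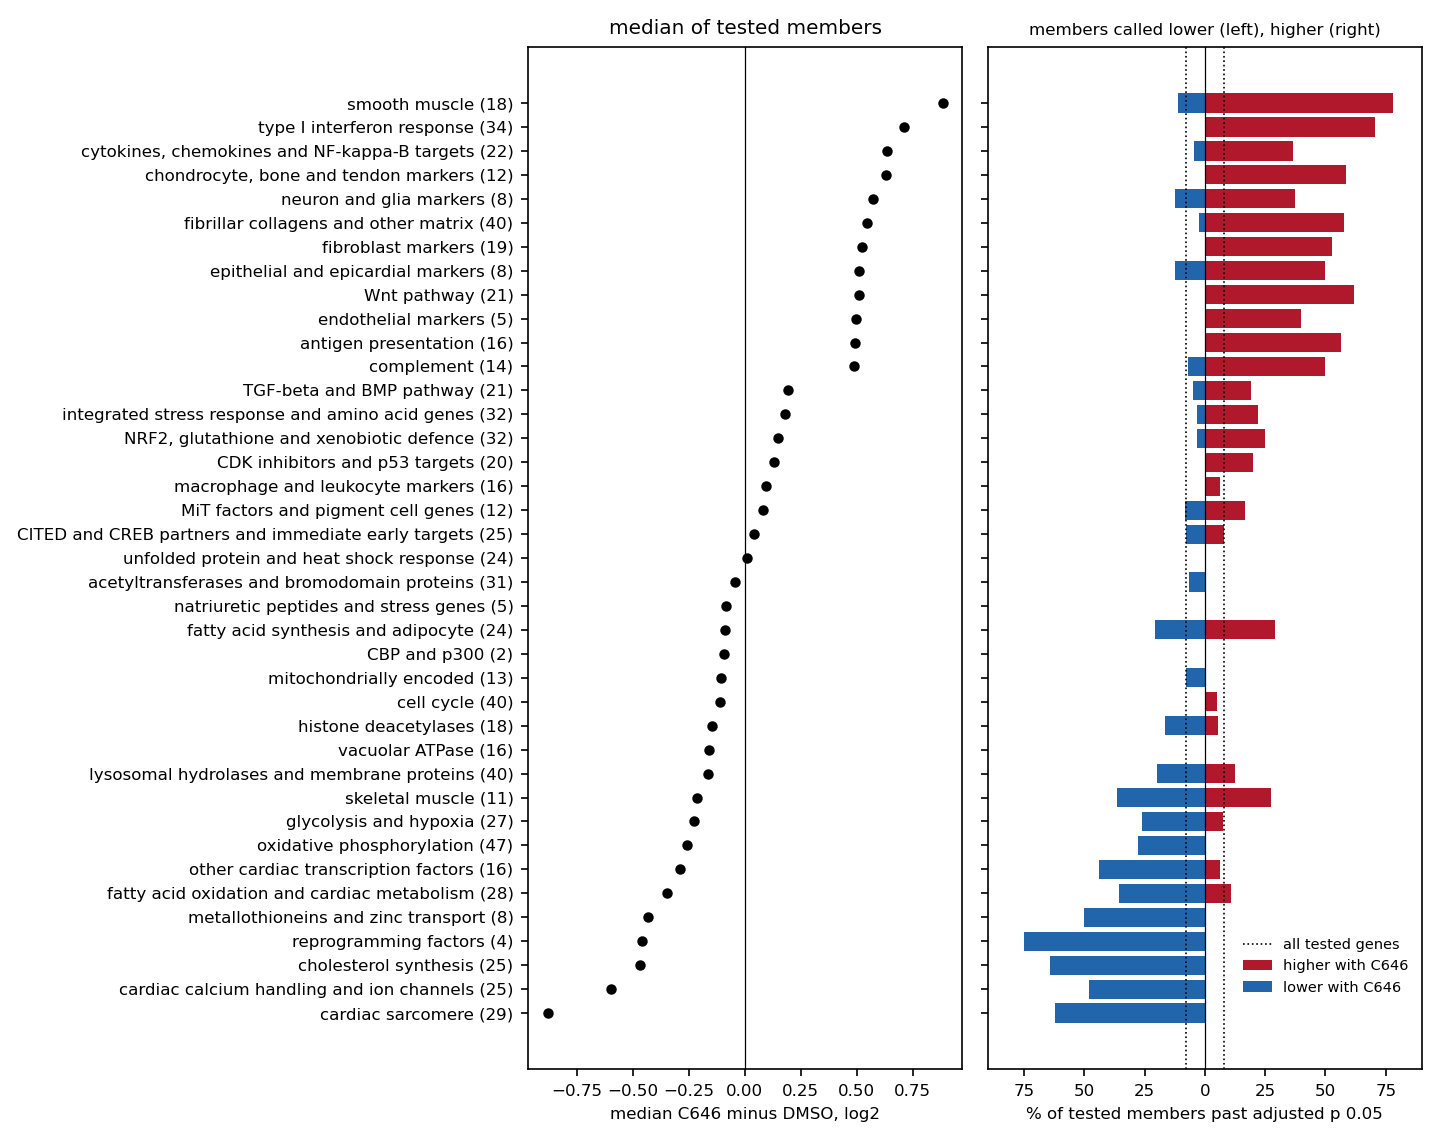
Median C646 minus DMSO difference of each gene list (left, log2, number of tested members in brackets) and the percentage of tested members past adjusted p 0.05 in each direction (right; dotted lines mark 7.98% higher and 7.88% lower over all tested genes). Smooth muscle, interferon and cytokine lists lie at the top, with most of their calls higher with C646, and sarcomere, calcium and cholesterol lists at the bottom, with most or all calls lower.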

How the data were processed

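RNA-seq was done on 8 libraries, with C646, DMSO, ethanol and I-CBP112 in pairs. Per the submitters' processing notes, reads were quantified with kallisto 0.43.1 against GRCm38.p5 and compared with DESeq2, its version not being stated there. The 3 deposited files are the authors' comparison tables. Their signal, baseMean, is the authors' mean normalised count over all libraries; the log2 fold change and its SE, the Wald score, and each p-value and adjusted p-value are the authors' deposited values. The tables name no reference, and ethanol, the group without a table, was taken as it. This does not affect the log2 difference between C646 and DMSO. The rebuilt group means, the SEs built with them and every comparison with ethanol rest on it. Totals per library are not in the tables; the sum of the authors' mean normalised counts was 3.8e+07, and the SEs give the precision, the rebuilt SE of the difference described next having a median of 0.185.

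Per gene the DMSO log2 fold change was subtracted from that of C646. The SE was rebuilt from a negative binomial model that gives each gene 1 dispersion over the 4 groups of 2 libraries. That dispersion was the median of the values solved from the 3 deposited SEs of the gene. Put back into the formula, it gave the deposited SEs to within 1% for 98.6% (DMSO), 98.9% (I-CBP112) and 99.0% (C646) of tested genes. Because these SEs were its input, the match shows only that 1 dispersion fits all 3, and is no independent test. The formula was also run on data simulated from the same model with known dispersions. Such data cannot show whether normal p-values hold with 2 libraries per group. Normal p-values were adjusted by Benjamini-Hochberg over the 14830 genes that have an adjusted value in the table for DMSO (baseMean of 26.1 or more). Named genes are the 4 GHMT factors, Crebbp and Ep300, the 12 highest and 12 lowest differences among protein-coding genes past the test with a baseMean of 50 or more, the 5 with the smallest p in each direction, and from each of the 39 gene lists the 4 members with the smallest p, or 8 where 8 or more were called in 1 direction. Members and lists were chosen with earlier results of these data known, and the CArG and MEF2 boxes, the families in the closing section, Cacnb4 and Gm37167 after seeing values. Lists were counted, with no set test. A few list members are in the counts but are not reported here by name or drawn. Positions are from GENCODE M21 and promoters from RefSeq, both on GRCm38. Scaling, filter, SE and reference distribution were varied. Python 3.11.15, pandas 2.3.3 and scipy 1.17.1 were used.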

Additional observations from a re-analysis of the deposited data

How the results depend on the processing

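The counts of changed genes depended on the test more than on scaling or filters. With the upper-bound SE, 839 genes changed, 511 higher and 328 lower, all among the 2351, so that 60.9% of calls were higher in place of 50.3%; changes of at least 2-fold numbered 471. Against a t distribution (4 degrees of freedom) 0 genes changed, 0 higher, 0 lower and 0 at least 2-fold, with 2138 at an unadjusted p below 0.05. Scaling to equal totals gave 2278 changed genes (1287 higher, 991 lower, 56.5% higher) and centring on the median gene 2271 (1308 higher, 963 lower, 57.6% higher), against a shift of -0.03. Testing all 34250 genes gave 1864, and a baseMean of 100 or more gave 2231 of 11981. Of 201 named genes past the test, 59 lost the call with the upper-bound SE, 201 with the t distribution, 3 under each scaling and 7 without a filter; Pdia3 passed under either scaling but not otherwise, and no named gene changed direction under any of these settings. No paired analysis was possible because the tables hold no values of single libraries; for that reason leaving out a library was not run either, and whether 1 library sets a value is not known.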

Other observations

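Several gene families were picked after their values were seen and are described without a test of the family. All 6 tested protein-coding Serpina3 genes, which encode secreted protease inhibitors, were higher with C646 than with DMSO, by a median of 2.54 on the log2 scale (all 6 also with the upper-bound SE). Their summed normalised counts were 46281 in C646, 6385 in DMSO, 42041 in ethanol and 19618 in I-CBP112. Reads can be shared among these paralogs, so the values of single members are uncertain. All 7 tested Oas and Oasl genes, the antiviral oligoadenylate synthetase family, were higher with C646, by 0.54 to 2.37 on the log2 scale (4 with the upper-bound SE), and their summed normalised counts were 5054 in C646, 2712 in DMSO, 4886 in ethanol and 5276 in I-CBP112.

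Clustered histone genes, most of whose transcripts lack a poly(A) tail, went the other way. Of 59 tested, 16 were lower with C646 and 0 higher (5 and 0 with the upper-bound SE), with a median difference of -0.39. Over all tested genes, 7.88% were lower and 7.98% higher. Summed normalised counts were 44060 in C646, 55756 in DMSO, 41872 in ethanol and 45086 in I-CBP112. Hist1h4k, the histone gene with the lowest difference, stood at 526 with DMSO and 173 with C646. Copies of these genes are near-identical, so that single values are uncertain. Cell cycle genes, given above, had 2 higher and 0 lower of 40 members, with a median difference of -0.11. A relation between the histone genes and cell division was not tested.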
